A study of Mus musculus with 60 samples.

Results

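The genes described here are the collagens and the enzymes and helper proteins that modify, fold, trim and cross-link collagen: 42 genes, of 15093 genes named on the arrays. A probe was taken as a member where its annotated symbol, or the current symbol of its gene, was on the list of 42. The 42 genes had 49 probes, and 32 of them, on 32 probes, were measured in enough cultures to be tested, among 9720 probes and 8108 genes tested in all. The list holds 32 collagen chains, 4 lysyl oxidases, 3 lysyl hydroxylases, the chaperone Serpinh1, the protease Bmp1 and its helper Pcolce.

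RNA of 5 mouse cell lines was compared on spotted 2-colour arrays. IM2 was the untransfected line. WTA (labelled high) and WTD (labelled low) were transfected with wild-type Pabpn1, and D7E (labelled high) and D7F (labelled low) with mutant Pabpn1. There were 3 cultures of every line, numbered 1 to 3 in the labels. All were compared with the same IM2 reference RNA on 2 array parts and with both dye orientations, which made 60 arrays. The labels give the RNA of part I as total RNA and that of part II as polyA RNA, and they name neither the tissue the cells came from, nor the mutation, nor the promoter of the transgene. Each genotype and level is 1 cell line, so the p-values below measure the spread between cultures of these lines and cannot tell a line from its transgene; whether a line is a single clone is not given in the labels. A value is the log2 ratio of a culture over the reference, averaged over both dyes, and culture values are listed in the order of the culture numbers. The deposited ratios were taken to be in base 10, so sizes and folds hold only in that case, while signs and tests do not depend on it. A ratio to a reference gives no absolute level, so levels of different genes could not be compared, and less RNA per cell cannot be told apart from fewer cells of a type.

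Collagens are secreted matrix proteins whose chains wind around each other into a helix, and they are classed by the assembly they form: striated fibrils, sheet-like networks, beaded filaments, or proteins that sit on the surface of fibrils or in the membrane. The chains are hydroxylated and folded in the endoplasmic reticulum, propeptides are removed at secretion, and lysyl oxidases then cross-link the assembled matrix. In skeletal muscle, collagens make up the connective tissue around the fibres and part of their basement membrane.

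The mean of the 4 transfected lines lay below that of IM2 for 20 of the 32 tested members and above it for none, at an adjusted p under 0.05 in limma's moderated test with Benjamini-Hochberg adjustment over all 9720 probes. Of all probes tested, 8.83% were lower and 6.40% higher, 15.2% in all. The 20 calls make up 62.5% of the tested members. The median difference was -0.69 over the 32 members and 0.03 over all probes. Fibrillar collagens made up 7 of the 20 calls, out of 8 tested, and the cross-linking and hydroxylating enzymes 6 out of 7. None of the 5 tested network collagens passed.

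In 18 of the 32 members every measured transfected culture lay below every measured IM2 culture, a pattern found downward in 6.78% of all probes. Upward it was found in 0 members and in 4.73% of all probes. By dye orientation, of the array values of the 20 called members in transfected cultures, 236 of 239 were below 0 with the culture in channel 1 and 231 of 240 with the culture in channel 2. In the IM2 cultures 31 of 59 and 24 of 60 were below 0. The members were called from the same arrays, so this split is a description.

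**Figure D1:**
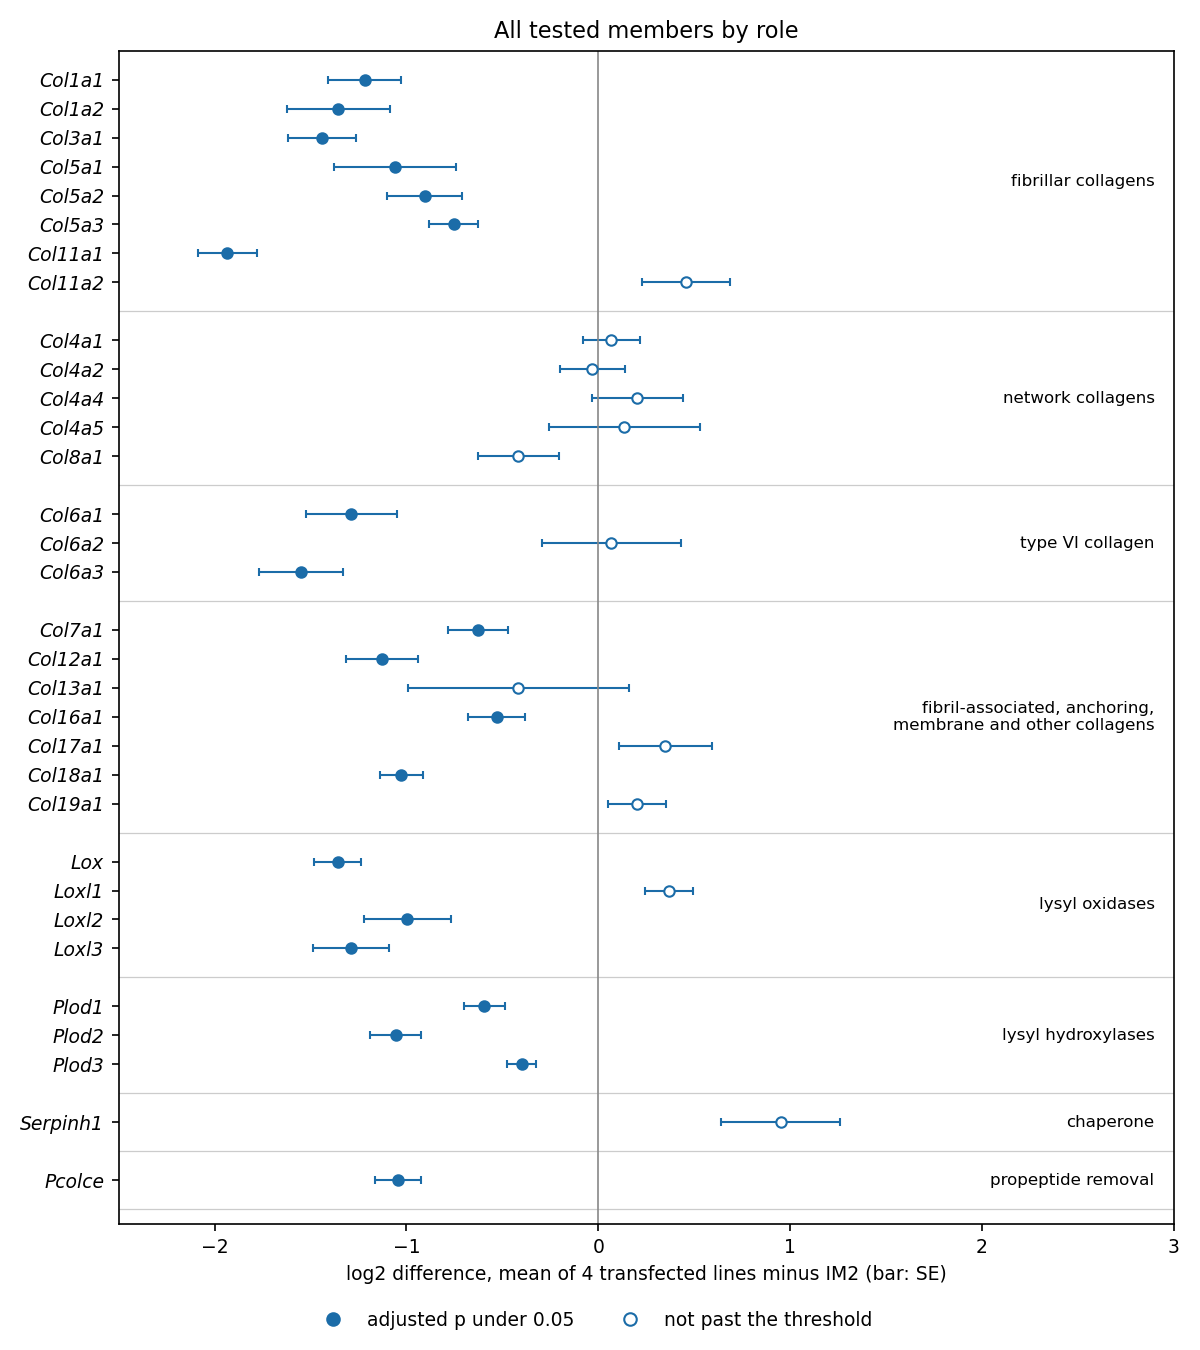
Differences between the mean of the 4 transfected lines and IM2 for the 32 tested members, grouped by role, on a log2 scale; bars are standard errors, and filled points passed an adjusted p under 0.05. The 20 filled points all lie left of 0, between -1.93 for Col11a1 and -0.40 for Plod3, and the 5 network collagens are all open.

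**Figure D2:**
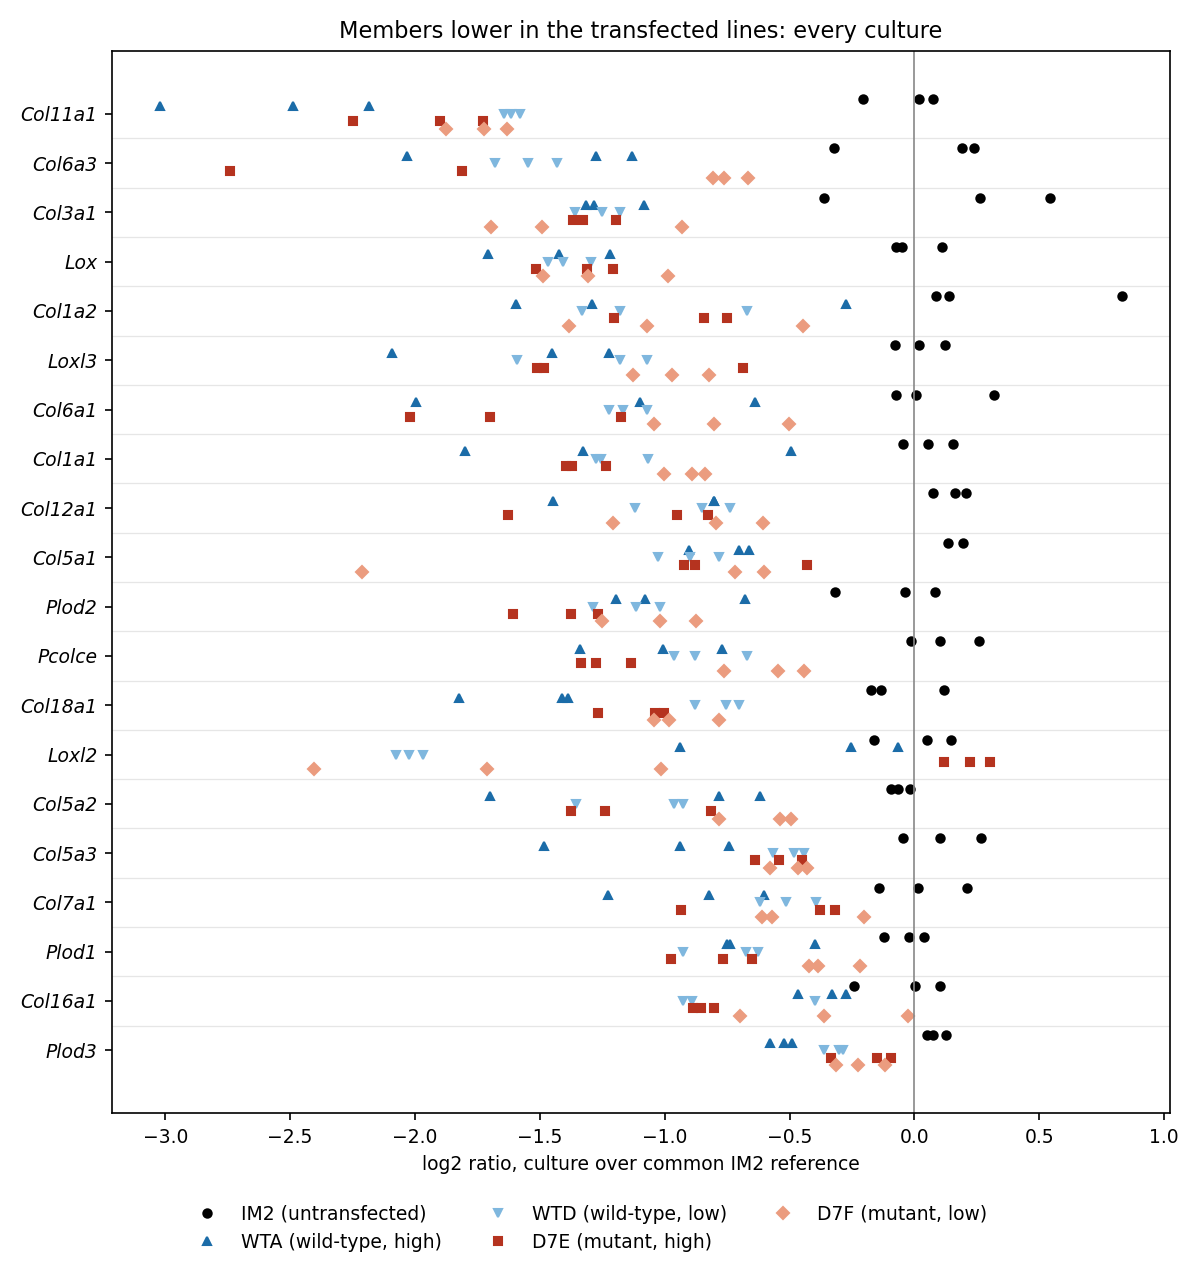
Log2 ratio of every culture over the common IM2 reference for the 20 members that were lower in the transfected lines, ordered by the size of the difference; each point is 1 culture and the shape gives the line. The IM2 points lie around 0, and only Loxl2 and Col16a1 have transfected cultures among or above them.

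The series as a whole bears on these values in the following ways. Pabpn1 itself was above the reference on each of the 24 part I arrays from transfected cultures, by 1.71 against IM2 on average, with WTA at 2.37, WTD at 1.61, D7E at 1.79 and D7F at 1.09. Between 82.4% and 99.9% of the rows of an array were filled on part I, and between 46.0% and 99.4% on part II. On 9 arrays over 20% of the values lay at a limit or under 70% of the rows were filled, and 5 of them were IM2 arrays. Leaving these 9 out gave 17 lower members of 34 tested, where 3.74% of all probes were lower. The IM2 arrays compare IM2 with itself, so no gene shows which way their ratios run, and each call below was repeated with their sign turned.

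Col11a1 had the largest difference of all members and the 11th lowest of all 9720 probes. It encodes a chain of type XI collagen, a minor fibrillar collagen, best known from cartilage, that helps start fibrils. Its value was at -0.21, 0.07 and 0.02 in IM2, at -3.02, -2.18 and -2.49 in WTA, at -1.64, -1.58 and -1.62 in WTD, at -1.90, -2.25 and -1.73 in D7E and at -1.63, -1.88 and -1.72 in D7F. The 3 IM2 cultures lay near 0 and all 12 transfected cultures at or below -1.58, with the 3 WTA cultures the lowest. The difference was -1.93 (SE 0.15, adjusted p = 2.49e-05), or 3.82-fold lower. The other Col11a1 probe was measured in 1 IM2 culture, at 0.98, and in 9 transfected cultures, at -2.33 to 0.86, with 6 of the 9 below 0, and was not tested. Col11a2, another chain of type XI collagen, was at -0.34 (IM2), 0.14 (WTA), 0.09 (WTD), 0.22 (D7E) and 0.03 (D7F) and did not pass (0.46, 95% interval -0.04 to 0.96).

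Type I collagen, the main fibril protein of tendon, bone and skin, is built from Col1a1 and Col1a2 chains. Col1a1 was at 0.16, 0.05 and -0.04 in IM2, at -1.80, -1.33 and -0.49 in WTA, at -1.25, -1.07 and -1.28 in WTD, at -1.37, -1.24 and -1.39 in D7E and at -1.0, -0.89 and -0.84 in D7F. All transfected cultures were below IM2, and WTA culture 3 was the highest of them. The difference was -1.22 (SE 0.19, adjusted p = 0.00162), 2.33-fold lower. Col1a2, measured on part II, was at 0.09, 0.83 and 0.14 in IM2, at -1.59, -1.29 and -0.27 in WTA, at -0.67, -1.18 and -1.33 in WTD, at -1.20, -0.75 and -0.84 in D7E and at -1.38, -1.07 and -0.45 in D7F. The groups did not overlap, although WTA culture 3 and D7F culture 3 came nearest to IM2, and IM2 culture 2 stood above the other IM2 cultures. Its difference was -1.35 (SE 0.27, adjusted p = 0.00503). With the IM2 ratios turned in sign it was -0.65 and did not pass (adjusted p = 0.105).

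Col3a1 encodes type III collagen, which shares fibrils with type I in stretchable tissues. Its cultures were at 0.54, -0.36 and 0.26 in IM2, at -1.28, -1.08 and -1.32 in WTA, at -1.25, -1.36 and -1.18 in WTD, at -1.20, -1.37 and -1.33 in D7E and at -0.93, -1.69 and -1.49 in D7F. No transfected culture reached the lowest IM2 culture, and the 4 line means lay within a narrow band. The difference of -1.44 (SE 0.18, adjusted p = 0.000336) is 2.71-fold lower.

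Upstream sequence is shown for Col11a1, Col1a2 and Col3a1, the largest differences among the fibrillar members, as the RefSeq annotation of GRCm38.p6 gives it: the 250 bases before the transcript start, on the + strand, 5′ to 3′. Capitals mark matches, on either strand, to CCAAT, whose reverse complement is ATTGG, to the GC box GGGCGG, whose reverse complement is CCGCCC, or to TATAAA, whose reverse complement is TTTATA. They were searched as exact letters, and overlapping matches were allowed. The windows are chr3:114030290-114030539, chr6:4505368-4505617 and chr1:45311288-45311537.
Col11a1: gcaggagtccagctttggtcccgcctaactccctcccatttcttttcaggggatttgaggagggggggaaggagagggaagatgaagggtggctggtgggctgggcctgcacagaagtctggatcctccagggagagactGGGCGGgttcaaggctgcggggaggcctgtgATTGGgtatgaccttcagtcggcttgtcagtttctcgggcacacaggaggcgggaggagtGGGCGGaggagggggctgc
Col1a2: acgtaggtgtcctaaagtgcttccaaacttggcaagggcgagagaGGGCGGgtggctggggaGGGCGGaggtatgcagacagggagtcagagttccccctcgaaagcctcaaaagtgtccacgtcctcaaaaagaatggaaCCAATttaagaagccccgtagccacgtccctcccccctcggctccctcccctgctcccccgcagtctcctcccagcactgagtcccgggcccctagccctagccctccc
Col3a1: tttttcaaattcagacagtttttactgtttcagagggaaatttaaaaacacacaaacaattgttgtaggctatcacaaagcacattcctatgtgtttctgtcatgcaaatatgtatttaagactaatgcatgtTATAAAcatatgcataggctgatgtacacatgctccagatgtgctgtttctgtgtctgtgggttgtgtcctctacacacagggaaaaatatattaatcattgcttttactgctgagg
The Col11a1 and Col1a2 windows each hold a CCAAT match and a pair of GGGCGG matches, and the Col3a1 window holds TATAAA alone. Windows were at hand for 29 members, of which 13 were lower and 11 tested but not called. CCAAT or its complement was in 7 of the 13 lower members (53.8%), in 4 of the 11 others (36.4%) and in 37.5% of the windows of all 27025 genes. GGGCGG was in 69.2%, 54.5% and 35.4%, and TATAAA in 15.4%, 27.3% and 14.3%. These are matches of letters, given as a description.

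Type V collagen joins type I fibrils and limits their width. Its Col5a1 chain was at 0.19 and 0.13 in IM2 (2 cultures measured), at -0.66, -0.90 and -0.70 in WTA, at -1.03, -0.78 and -0.90 in WTD, at -0.92, -0.43 and -0.88 in D7E and at -2.21, -0.60 and -0.72 in D7F, with D7F culture 1 far below the rest. The difference was -1.06 (SE 0.32, adjusted p = 0.0455), close to the threshold, and the call was lost in 10 of 22 alternatives, with adjusted p = 0.132 at the highest. Col5a2 was at -0.10, -0.07 and -0.02 in IM2, at -1.70, -0.62 and -0.78 in WTA, at -0.96, -1.35 and -0.93 in WTD, at -1.38, -1.24 and -0.82 in D7E and at -0.49, -0.54 and -0.78 in D7F. The D7F cultures were the highest as a group, and all transfected cultures lay below IM2. Its difference was -0.91 (SE 0.20, adjusted p = 0.01), and without the arrays of low quality -0.93 with adjusted p = 0.0556. Col5a3 was at -0.05, 0.10 and 0.27 in IM2, at -1.48, -0.94 and -0.74 in WTA, at -0.56, -0.48 and -0.44 in WTD, at -0.64, -0.54 and -0.45 in D7E and at -0.47, -0.43 and -0.58 in D7F, with the WTA cultures the lowest, and differed by -0.75 (SE 0.13, adjusted p = 0.00276). With the Cy5 arrays alone its adjusted p was 0.0678.

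Col5a2 is the neighbour of Col3a1 in the RefSeq annotation of GRCm38.p6, and both were lower. There were 4 other pairs of neighbouring members. Col6a1 was lower while Col6a2 was not called, and neither gene of the overlapping pair Col4a1 and Col4a2 was called. In the overlapping pair Col4a4 and Col4a3 and in the pair Col9a1 and Col19a1, Col4a4 and Col19a1 were not called and their partners were not tested.

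Type IV collagen forms the network of basement membranes, in most tissues from the chains Col4a1 and Col4a2. Col4a1 was at -0.34, 0.07 and -0.01 in IM2, at -0.85, -0.36 and -0.04 in WTA, at 0.33, 0.24 and 0.48 in WTD, at -0.18, -0.05 and -0.06 in D7E and at -0.12, 0.24 and 0.08 in D7F. WTD lay above IM2 and WTA mostly below, and the mean of the 4 lines differed from IM2 by 0.07 (95% interval -0.25 to 0.39). Col4a2 was at -0.13, 0.16 and 0.23 in IM2, at -0.71, -0.37 and -0.03 in WTA, at 0.28, 0.28 and 0.53 in WTD, at 0.07, 0.21 and 0.24 in D7E and at -0.40, 0.44 and 0.13 in D7F. Here too the WTD cultures were the highest as a group and WTA the lowest, and the difference from IM2 was -0.03 (95% interval -0.40 to 0.34). Both intervals leave out a fall as large as those of Col1a1 or Col3a1.

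Other network chains were measured with less precision. Col4a4, a chain of specialised basement membranes such as that of the kidney glomerulus, had means of 0.04 (IM2), 0.57 (WTA), 0.15 (WTD), -0.03 (D7E) and 0.29 (D7F) (difference 0.20, 95% interval -0.33 to 0.73). Col4a5, another chain of the same kind, had means of -0.33 (IM2), -0.01 (WTA), 0.06 (WTD), -0.51 (D7E) and -0.32 (D7F), and its interval reached from -0.72 to 0.99. Col8a1, a short-chain collagen of vessel walls and the cornea, had means of 0.03 (IM2), -0.98 (WTA), -0.09 (WTD), -0.08 (D7E) and -0.40 (D7F). Its difference over the 4 lines was -0.42 (SE 0.21, adjusted p = 0.206), and in WTA alone it was -1.01 (SE 0.27, adjusted p = 0.0308), a call lost in 9 of 27 alternatives with adjusted p = 0.175 at the highest.

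**Figure D3:**
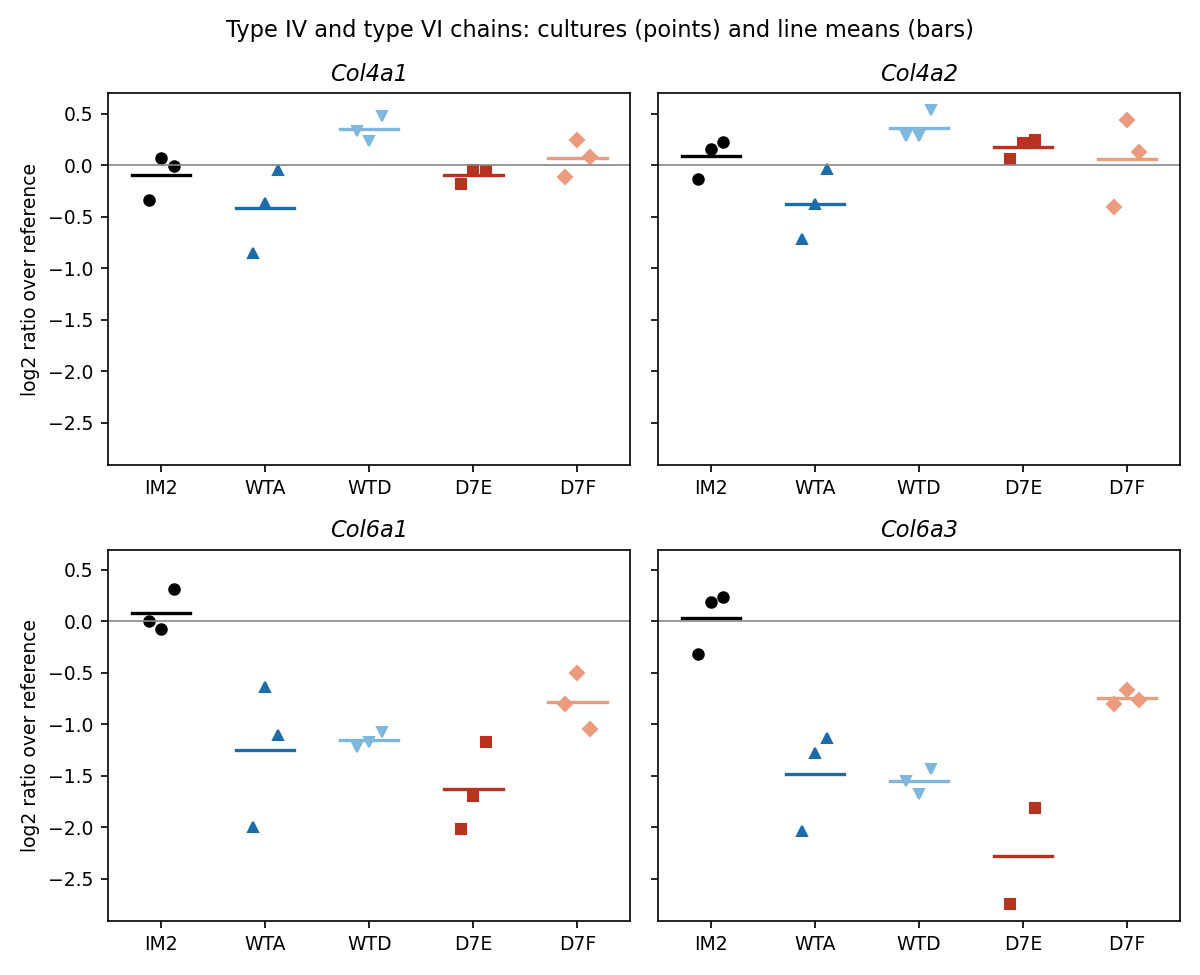
Log2 ratio over the common IM2 reference for 2 type IV chains and 2 type VI chains; points are cultures, bars are line means, and all panels share 1 axis. Col4a1 and Col4a2 lie on both sides of 0, while Col6a1 and Col6a3 are below IM2 in each transfected line, lowest in D7E and highest in D7F.

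Type VI collagen forms beaded filaments around cells and is known in muscle because defects in its chains cause congenital muscular dystrophy. Col6a3 was at -0.32, 0.19 and 0.24 in IM2, at -2.03, -1.27 and -1.13 in WTA, at -1.55, -1.68 and -1.43 in WTD, at -2.74 and -1.81 in D7E (2 cultures measured) and at -0.81, -0.67 and -0.76 in D7F, so the fit rests on 14 cultures. D7E was the lowest line and D7F the highest, with no overlap with IM2 in either. The difference was -1.55 (SE 0.22, adjusted p = 0.00118), 2.93-fold lower. A pair of further Col6a3 probes, measured in 7 and 9 cultures, were not tested and had transfected values of -0.48 to 2.37 and of -1.64 to 0.43. The first had IM2 values of -0.12 and -2.34 in 2 cultures, and the second 0.29 in 1 culture. Col6a1 was at 0.01, -0.07 and 0.32 in IM2, at -2.0, -0.64 and -1.10 in WTA, at -1.22, -1.17 and -1.07 in WTD, at -2.02, -1.70 and -1.17 in D7E and at -0.80, -0.50 and -1.04 in D7F, and all 12 transfected cultures lay below IM2. Its difference was -1.29 (SE 0.24, adjusted p = 0.00455). Col6a2, which shares a filament with both, had means of -0.07 (IM2), 0.06 (WTA), 0.08 (WTD), 0.07 (D7E) and -0.24 (D7F) over fewer cultures, 2 of them IM2. Its difference was 0.07 with a 95% interval of -0.75 to 0.89, and the contrast between the 3 chains was not tested.

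Col12a1 belongs to the collagens that sit on the surface of fibrils. Its cultures were at 0.16, 0.21 and 0.07 in IM2, at -1.45, -0.80 and -0.80 in WTA, at -0.85, -0.74 and -1.12 in WTD, at -1.63, -0.83 and -0.95 in D7E and at -0.79, -1.21 and -0.61 in D7F, all transfected values lying below IM2, with a difference of -1.13 (SE 0.19, adjusted p = 0.00242). Col18a1, a basement membrane proteoglycan collagen from which endostatin is released, was at -0.13, 0.12 and -0.17 in IM2, at -1.82, -1.39 and -1.41 in WTA, at -0.70, -0.88 and -0.76 in WTD, at -1.04, -1.0 and -1.27 in D7E and at -0.78, -0.98 and -1.04 in D7F. WTA was the lowest line, and no culture overlapped with IM2. The difference was -1.03 (SE 0.11, adjusted p = 0.000166), 2.04-fold lower.

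Col7a1 and Col16a1 gave smaller calls. Col7a1, the collagen of the anchoring fibrils under epithelia, was at -0.14, 0.01 and 0.21 in IM2, at -0.82, -0.60 and -1.23 in WTA, at -0.39, -0.51 and -0.62 in WTD, at -0.93, -0.32 and -0.38 in D7E and at -0.57, -0.61 and -0.20 in D7F. D7F culture 3 was the closest to IM2 without overlapping, and the difference was -0.63 (SE 0.16, adjusted p = 0.0201), and -0.53 with adjusted p = 0.0811 without IM2 culture 3. The call was lost in 4 of 26 alternatives, with adjusted p = 0.165 at the highest, with the Cy3 arrays alone. Col16a1, a fibril-associated chain on part II, was at 0.10, -0.24 and 0.00 in IM2, at -0.33, -0.28 and -0.47 in WTA, at -0.40, -0.89 and -0.93 in WTD, at -0.89, -0.80 and -0.86 in D7E and at -0.36, -0.02 and -0.70 in D7F. D7F culture 2 lay among the IM2 cultures, the D7E cultures lay well below, and the difference was -0.53 (SE 0.15, adjusted p = 0.0285). Without IM2 culture 1 it was -0.46 (adjusted p = 0.114), without IM2 culture 3 -0.51 (adjusted p = 0.0823), and without the arrays of low quality -0.65 (adjusted p = 0.0554). In all, the call was lost in 7 of 26 alternatives, with adjusted p = 0.128 at the highest, with the Cy5 arrays alone.

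Of the remaining collagens of this kind that could be tested, none passed. Col13a1, a transmembrane collagen found at the neuromuscular junction, had means of 0.20 (IM2), -0.66 (WTA), 0.13 (WTD), -0.14 (D7E) and -0.18 (D7F), with cultures spread from -2.37 to 0.62 among the transfected lines (difference -0.42, 95% interval -1.70 to 0.87). Col17a1, a transmembrane collagen of epithelial hemidesmosomes, had means of -0.30 (IM2), 0.05 (WTA), -0.03 (WTD), 0.21 (D7E) and -0.05 (D7F) (difference 0.35, 95% interval -0.22 to 0.92). Col19a1, a fibril-associated chain, had means of -0.07 (IM2), 0.26 (WTA), 0.18 (WTD), 0.05 (D7E) and 0.04 (D7F) (difference 0.20, 95% interval -0.12 to 0.53).

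Lysyl oxidases oxidise lysine side chains of collagen and elastin, the step that starts cross-linking. Lox was at 0.11, -0.07 and -0.05 in IM2, at -1.71, -1.42 and -1.22 in WTA, at -1.30, -1.41 and -1.47 in WTD, at -1.31, -1.21 and -1.52 in D7E and at -0.99, -1.49 and -1.31 in D7F. The transfected cultures formed 1 band well below IM2, with no order between lines that exceeded their spread. The difference was -1.36 (SE 0.12, adjusted p = 5.60e-05), 2.56-fold lower. Loxl3 was at 0.02, -0.08 and 0.12 in IM2, at -2.09, -1.45 and -1.22 in WTA, at -1.07, -1.18 and -1.59 in WTD, at -1.51, -0.69 and -1.48 in D7E and at -0.97, -1.13 and -0.82 in D7F, again with no overlap with IM2, and differed by -1.29 (SE 0.20, adjusted p = 0.00159). With the Cy5 arrays alone its adjusted p was 0.0611.

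Loxl1, the family member tied to elastic fibres, did not go the same way. It was at -0.27, 0.13 and 0.26 in IM2, at 0.31, 0.18 and 0.45 in WTA, at 0.13, 0.39 and 0.55 in WTD, at 0.44, 0.62 and 0.65 in D7E and at 0.26, 0.55 and 0.36 in D7F. Its transfected cultures overlapped with IM2 at their lower end, and the difference of 0.37 (SE 0.12, adjusted p = 0.0656) did not pass, although it did in 6 of 26 alternatives. In D7E alone, against IM2, it was 0.53 (SE 0.16, adjusted p = 0.0463), a call lost in 16 of 27 alternatives with adjusted p = 0.207 at the highest.

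Loxl2 was the only member whose level differed between the transfected lines in an F test over the 4 line means, where 1.66% of all probes passed. Without IM2 culture 2, WTA culture 1 or WTA culture 2, 2 members passed, where 3.09%, 1.21% and 2.49% of all probes did. Loxl2 cross-links type IV collagen among other substrates. The part II probe was at -0.16, 0.05 and 0.15 in IM2, at -0.94, -0.07 and -0.26 in WTA, at -1.97, -2.07 and -2.03 in WTD, at 0.30, 0.12 and 0.22 in D7E and at -1.01, -1.71 and -2.40 in D7F. WTD and D7F were low, D7E was at or slightly above IM2, and WTA lay between, its culture 1 lower than the other two. The highest and lowest line means, D7E and WTD, were 2.24 apart (adjusted p = 0.00161). From high to low the line means were 0.21 in D7E, 0.01 in IM2, -0.42 in WTA, -1.71 in D7F and -2.02 in WTD.

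Of these, D7E and WTA did not differ from IM2 beyond their spread (0.20, adjusted p = 0.702, and -0.43, adjusted p = 0.364). WTD was 4.10-fold below IM2 (-2.03, adjusted p = 0.00125) and D7F 3.30-fold below (-1.72, adjusted p = 0.00419), and these 2 lines overlapped with each other. The mean of the 4 lines against IM2, -1.0 (SE 0.23, adjusted p = 0.0107), thus joins 2 lines that were low and 2 that were not shown to differ. That call was lost in 2 of 26 alternatives, the Cy5 arrays alone (adjusted p = 0.0868) and the Cy3 arrays alone (adjusted p = 0.110). The part I probe of Loxl2 was measured in no IM2 culture and in 6 transfected cultures, between -1.32 and 1.57, and was not tested.

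**Figure D4:**
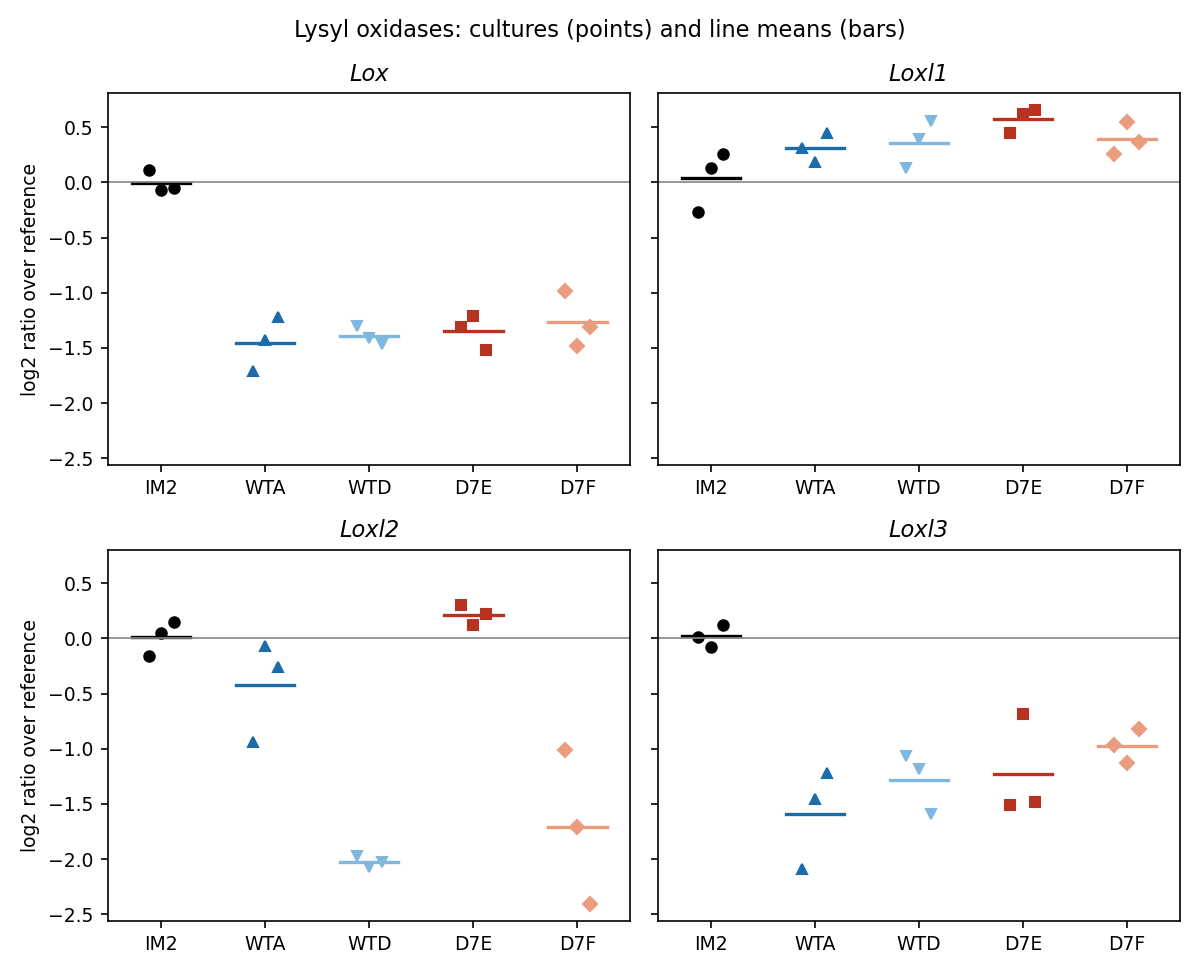
Log2 ratio over the common IM2 reference for the 4 lysyl oxidases; points are cultures, bars are line means, and all panels share 1 axis. Lox and Loxl3 are low in all 4 transfected lines, Loxl1 has 1 culture clearly below 0, IM2 culture 1 at -0.27, and all transfected cultures above 0, and Loxl2 is low in WTD and D7F only, with line means of -2.02 and -1.71.

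The lysyl hydroxylases Plod1, Plod2 and Plod3 modify the lysines that are later cross-linked or glycosylated, and all 3 passed. Plod2, which acts on the telopeptides at the chain ends, was at 0.08, -0.32 and -0.04 in IM2, at -1.08, -0.68 and -1.19 in WTA, at -1.12, -1.29 and -1.02 in WTD, at -1.27, -1.61 and -1.38 in D7E and at -0.87, -1.02 and -1.25 in D7F. The highest transfected culture, at -0.68, stayed below the lowest IM2 culture, and the difference was -1.06 (SE 0.13, adjusted p = 0.000383). Plod1, which acts on the helix, was at 0.04, -0.12 and -0.02 in IM2, at -0.75, -0.74 and -0.40 in WTA, at -0.93, -0.63 and -0.67 in WTD, at -0.98, -0.65 and -0.77 in D7E and at -0.22, -0.39 and -0.42 in D7F. D7F lay nearest to IM2, and the difference was -0.59 (SE 0.11, adjusted p = 0.00364). Plod3, which also adds sugars to hydroxylysine, was at 0.08, 0.05 and 0.13 in IM2, at -0.58, -0.52 and -0.49 in WTA, at -0.36, -0.30 and -0.29 in WTD, at -0.34, -0.09 and -0.15 in D7E and at -0.32, -0.23 and -0.12 in D7F. The cultures did not overlap with IM2, but the difference was the smallest among the calls, -0.40 (SE 0.08, adjusted p = 0.00501), and -0.23 with adjusted p = 0.0523 with the IM2 ratios turned in sign and -0.18 with adjusted p = 0.318 with the Cy5 arrays alone. The other 24 of 26 alternatives kept the call.

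Serpinh1, the collagen chaperone known as Hsp47, was at -2.11, -0.06 and -0.28 in IM2, at 0.16, 0.13 and -0.07 in WTA, at 0.03, 0.02 and 0.24 in WTD, at 0.09, 0.43 and 0.22 in D7E and at 0.15, 0.19 and 0.02 in D7F. IM2 culture 1 stood far below all other cultures, and the other 2 IM2 cultures overlapped with the transfected range or lay just below it. The difference of 0.95 (SE 0.31, adjusted p = 0.0571) did not pass. It was 0.30 (adjusted p = 0.120) without IM2 culture 1, 1.33 (adjusted p = 0.0117) without IM2 culture 2, 1.22 (adjusted p = 0.0433) without IM2 culture 3, and -0.68 (adjusted p = 0.142) with the IM2 ratios turned in sign, so 1 culture sets its size and its direction is not settled. Both part I arrays of IM2 culture 1 are among those of low quality. The other Serpinh1 probe was measured in 7 cultures and was not tested.

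Pcolce binds procollagen and speeds the removal of its propeptide by Bmp1. Pcolce was at 0.10, -0.01 and 0.26 in IM2, at -1.34, -0.77 and -1.01 in WTA, at -0.96, -0.88 and -0.67 in WTD, at -1.27, -1.34 and -1.14 in D7E and at -0.55, -0.44 and -0.76 in D7F. D7E was the lowest line and D7F the highest, all below IM2, and the difference was -1.04 (SE 0.12, adjusted p = 0.00024), 2.06-fold lower. Bmp1 was measured on 2 probes in 10 and 3 cultures and was not tested. On the first, the transfected values were -0.29 to 0.99 and the 2 IM2 cultures were at 2.85 and -0.46.

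In all, 10 members had no tested probe, since fewer than 2 cultures of some line gave a value inside the limits with both dyes. Col2a1, the main cartilage collagen, was below 0 in 11 of 11 transfected cultures (-1.46 to -0.15) and at -0.13 in the 1 IM2 culture measured. Col14a1, a fibril-associated chain, was at 0.20, -0.46 and 0.01 in IM2 and at -1.29 to -0.27 in 8 transfected cultures on part I, below 0 in all 8. Its part II probe had no IM2 value and ranged from -1.17 to 0.94. Col9a1 (10 transfected cultures, -2.07 to 2.16), Col9a2 (10 cultures, -0.27 to 0.65) and Col9a3 (9 cultures, -1.30 to -0.06), the chains of cartilage type IX collagen, each had 1 IM2 value. Col4a3 (7 cultures, -1.94 to 0.44) and Col15a1 (7 cultures, -1.51 to 1.14), both of basement membranes, had 1 and 2. Col8a2 (8 cultures, -0.45 to 1.80) and Col10a1 (5 cultures, -0.11 to 0.12), both network chains, had none. No comparison was made for these 10.

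The 4 transfected lines were then taken 1 at a time against IM2, with the same 3 IM2 cultures in every comparison. In WTA 18 of 32 members were lower and 0 higher, where 11.5% of all probes passed, 6.37% lower and 5.16% higher. In WTD 18 were lower and 0 higher, where 7.03% of all probes passed, 4.95% lower and 2.08% higher. In D7E 16 were lower and 1, Loxl1, was higher, where 12.3% of all probes passed, 8.21% lower and 4.13% higher. In D7F 11 were lower and 0 higher, where 4.50% of all probes passed, 2.91% lower and 1.58% higher. Without WTD culture 3 the WTD count was 10, and the D7F count was 6 without IM2 culture 1 or IM2 culture 3 and 7 without D7F culture 1 or D7F culture 2. Of all probes, 3.13% passed in that WTD fit, and 2.93%, 4.06%, 3.23% and 2.42% in those D7F fits in the same order. With only the line and IM2 in the fit, the WTA count was 1 and the D7F count 4, where 0.144% and 0.854% of all probes passed. Because the IM2 cultures are shared, these counts are given side by side and no overlap between them is drawn.

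Among the fibrillar chains, the Col11a1 difference from IM2 was -2.53 for WTA, -1.58 for WTD, -1.92 for D7E and -1.71 for D7F. Col3a1 differed by -1.38, -1.41, -1.45 and -1.52 in the same order, and Col1a2 by -1.41, -1.41, -1.28 and -1.32. All 12 of these values passed, although for Col1a2 the call was lost in 7, 8, 9 and 16 of 27 alternatives in the same order of lines, and for Col3a1 in 2 for WTA and 2 for D7F. For Col1a1 they were -1.26, -1.25, -1.39 and -0.97. Of the type VI chains, the Col6a3 difference was -2.31 for D7E (adjusted p = 0.00104) but -0.78 for D7F (adjusted p = 0.137), and that of Col6a1 was -1.71 (adjusted p = 0.00448) and -0.87 (adjusted p = 0.132). In 11 of the 20 called members the smallest fall was in D7F, and how often this holds among all probes was not counted. Over all probes, D7F also had the smallest share called lower, 2.91%, against 6.37% in WTA, 4.95% in WTD and 8.21% in D7E. D7F had the smallest Pabpn1 difference of the 4 lines as well, and whether the sizes go together was not tested.

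**Figure D5:**
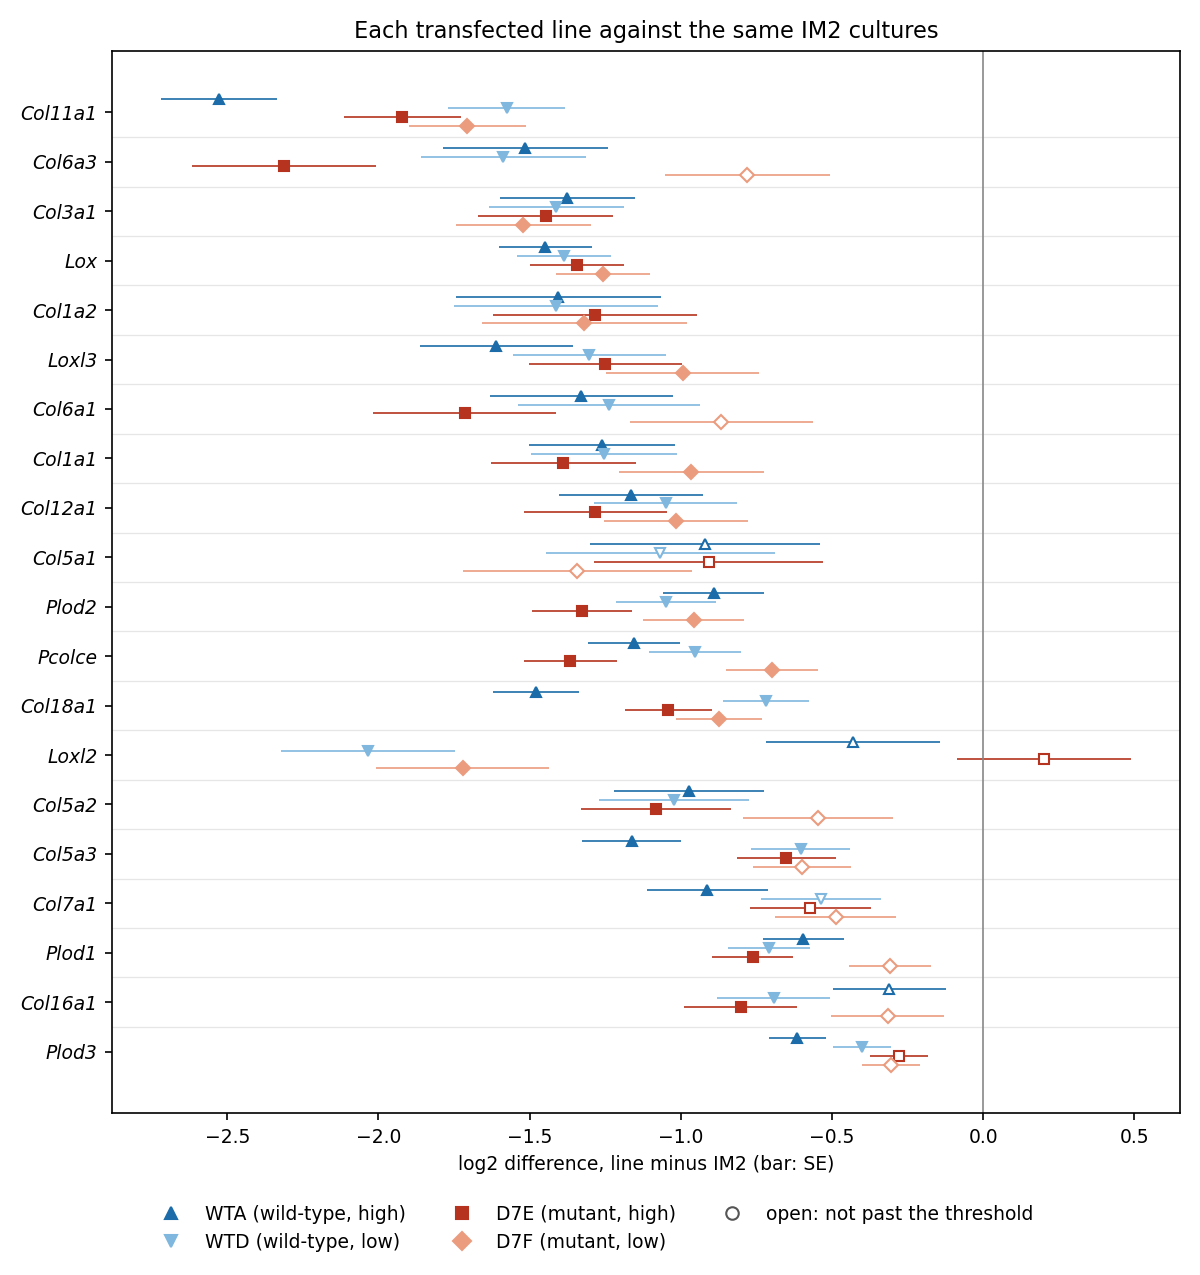
Log2 difference of each transfected line from the same 3 IM2 cultures for the 20 members that were lower over the 4 lines; bars are standard errors and open symbols did not pass an adjusted p under 0.05. Col3a1 and Lox have nearly equal values in all 4 lines, Col6a3 ranges from -2.31 in D7E to -0.78 in D7F, and Loxl2 is near or above 0 in WTA and D7E.

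Differences among the transfected lines do not use the IM2 values, but IM2 cultures enter the estimate of the spread and the filter on probes. With the 4 transfected lines alone fitted, 36 members were tested. Then 1 member differed among the lines, 1 between high and low and 0 between mutant and wild-type. Of all probes, 0.954%, 0.182% and 0.0912% passed in these fits. Between the lines labelled high (WTA and D7E) and low (WTD and D7F), Loxl2 was higher in the high lines by 1.76 (SE 0.20, 95% interval 1.33 to 2.20, adjusted p = 0.00148). It was the only member called, where 0.381% of all probes passed with 0.206% higher and 0.175% lower. With the Cy3 arrays alone the Loxl2 difference did not pass (adjusted p = 0.121). Without WTA culture 2 the count of members was 4, where 0.952% of all probes passed. At an unadjusted p under 0.05, 8 members passed this comparison, where 766 of the 9720 probes tested did. Col18a1 (-0.46, adjusted p = 0.0994), Col11a1 (-0.58, adjusted p = 0.127) and Pcolce (-0.43, adjusted p = 0.153) came next after Loxl2 and were lower in the high lines without passing.

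Between mutant (D7E and D7F) and wild-type lines (WTA and WTD), limma called 0 members, and 0.195% of all probes passed, 0.103% higher and 0.0926% lower. At an unadjusted p under 0.05, 3 members passed: Plod3 (0.22, adjusted p = 0.465), Loxl2 (0.47, adjusted p = 0.729) and Col5a3 (0.26, adjusted p = 0.736). By that threshold 649 of the 9720 probes tested passed. The mutant and wild-type means differed by 0.08 for Col1a1 (95% interval -0.29 to 0.45), by -0.09 for Col3a1 (-0.43 to 0.25) and by 0.12 for Lox (-0.12 to 0.36). For these 3 genes the interval leaves out differences between genotypes as large as their difference from IM2.

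The interaction of genotype and labelled level, taken as WTD and D7E against WTA and D7F, gave 0 called members in limma, while 2.37% of all probes passed, 0.844% higher and 1.52% lower. Without WTA culture 1, WTA culture 2 or D7F culture 3 the count was 1, and the shares of all probes in these fits are not given here. At an unadjusted p under 0.05, 10 members passed, where 1390 of the 9720 probes tested did. Col6a3 was the nearest to a call (-0.80, adjusted p = 0.0642), followed by Col16a1 (-0.43, adjusted p = 0.1) and Col8a1 (0.61, adjusted p = 0.121).

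Other genes of the collagen pathway were read from lists drawn up by function. Of 20 tested genes that modify, fold and secrete collagen, 10 were lower in the transfected lines and 0 higher (median over their probes -0.58, against 0.03 for all). The 4 largest were Hspa5, the general chaperone BiP (-1.45 on 1 probe, and -0.13 with adjusted p = 0.539 on the other), P4hb, the shared subunit of the prolyl hydroxylases (-1.39), Pcolce2, a relative of Pcolce (-1.25), and P4ha1, a catalytic subunit of prolyl hydroxylase (-0.84). Of 16 tested fibril partners, 6 were lower and 1 higher, where 8.83% and 6.40% of all probes were. Fbln1 (-1.51), Bgn, the proteoglycan biglycan (-1.38), Thbs2 (-1.06) and Mfap2 (-1.04) were the largest, and the 1 that rose, Ogn, the proteoglycan osteoglycin (0.90 and 0.71 on its 2 probes), is named after its values were seen. Mfap2 was at 0.46 in IM2 and at -0.69 to -0.39 in the line means. With the IM2 sign turned, its IM2 mean lies among them. With that sign turned 5 partners were lower, where 9.8% of all probes were. With the Cy5 arrays alone 3 were lower and 0 higher, where 2.85% of all probes were lower.

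Of 6 tested collagen receptors only Sdc1, a syndecan, passed (-0.81), and 3 were lower with the IM2 ratios turned in sign. Of 11 tested genes of collagen breakdown, Mmp3, a matrix protease, was higher (1.02, adjusted p = 0.0489, with IM2 at -0.77). The count of higher genes was 0 with centred arrays, limit values kept, Cy5 or Cy3 arrays alone, or 1 orientation enough. It was also 0 with a replicate block or without the arrays of low quality. With scaled arrays or the IM2 sign turned it was 1, and in the remaining alternatives 2 and 3. These counts do not say which gene was higher. The Mmp3 means were 0.20 (WTA), 0.21 (WTD), 0.46 (D7E) and 0.12 (D7F). They are all nearer to 0 than the IM2 mean, so Mmp3 lies below IM2 where the IM2 sign is turned. Its direction thus depends on that sign. Timp1, a protease inhibitor, was lower (-0.62). Of 24 tested regulators of collagen genes, 2 were higher and 3 lower, near the 6.40% and 8.83% of all probes, as was the 1 in each direction among the breakdown genes. Scx (0.71) and Wwtr1 (0.64) were higher. Cebpb (-0.72), Ccn1 (-0.41) and, outside the 4 largest and named after its values were seen, Atf4 (-0.40) were lower. Both tested genes of the remaining collagens did not pass.

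Markers of cell types that a culture could hold were read alongside the collagens. Of 17 tested myogenic genes 7 were higher and 0 lower, where 6.40% and 8.83% of all probes were. Their mean ratio was -0.09 to 0.05 in the IM2 cultures and 0.27 to 0.59 in the transfected cultures. The 4 largest calls were Mymk, needed for myoblast fusion (0.74), Pax7, a transcription factor of satellite cells (0.72), Myf6, a myogenic transcription factor (0.54), and Tnni1, a slow-muscle troponin (0.51). Pax7 was at -0.40 in IM2 and at 0.43 (WTA), 0.28 (WTD), 0.32 (D7E) and 0.26 (D7F). With the IM2 sign turned, its IM2 mean lies among these line means, so its rise depends on that sign. The count of higher myogenic genes fell to 1 without the arrays of low quality, with limit values kept or where 1 orientation was enough. It was 2 with centred arrays or Cy3 arrays alone, and 3 with scaled arrays, Cy5 arrays alone or the IM2 sign turned. With probes measured in all 15 cultures or a replicate block it was 8, and with arrays as units and a dye term 12. The share of all probes that passed in either direction, 15.2% in the main fit, moved too. In these alternatives, in the order given, it was 5.74%, 8.03%, 5.38%, 13%, 6.5%, 14.3%, 5.44%, 18.4%, 27.2%, 14.9% and 20.9%. Of 11 tested fibroblast genes other than collagens, Twist1 (-1.15), Fbln2 (-1.03, which is also among the fibril partners) and Vim (-0.61) were lower and Dpt (0.87) higher. Their mean ratio was -0.19 to 0.11 in IM2, and in the transfected cultures it ran from -0.62 to -0.03 (WTA), -0.37 to -0.27 (WTD), -0.75 to -0.38 (D7E) and -0.20 to -0.09 (D7F). The count of lower fibroblast genes was 0 with the Cy3 arrays alone and 1 without the arrays of low quality. There 3.91% and 3.74% of all probes were lower. It was 2 with limit values kept, Cy5 arrays alone or 1 orientation enough, where 4.05%, 2.85% and 3.05% were. The count of higher fibroblast genes was 0 with the IM2 sign turned. Markers of cartilage and bone (4 tested), endothelium (3), smooth muscle (5), adipocytes (3) and Schwann and neural cells (4) gave no call in either direction, and no leukocyte marker was tested. The part of these markers in the collagen differences was not tested, and ratios to a reference do not show whether a marker is present at all.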

How the data were processed

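RNA of 15 cultures of 5 mouse cell lines was measured on 60 2-colour arrays, 30 for each of 2 array parts. The authors deposited 1 log ratio per spot, taken here as log10 because values stop at -2 and 2, ratios of 100 in that base; how the arrays were scanned and normalised is not given in the sources used here. No intensities were used, so precision rests on the number of cultures. All 60 value columns matched a sample. Titles and channel sources gave line, culture and dye; the channel sources were followed for WTA culture 3 on part I, where the dye in the titles differs, and for 1 array of D7F culture 1 the description says high and the title was used. Ratios were read as culture over reference.

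Deposited values at -2 or 2 were dropped, the rest multiplied by 3.3219 to give log2 ratios, and both dyes of a culture averaged, both being required. Control rows of human sequence were left out. Probes with values in 2 or more cultures of each line, 4651 on part I and 5069 on part II, were fitted with limma 3.58.1 in R 4.3.3 (lmFit and eBayes, 5 line means, each part on its own). P-values of each of 9 comparisons were adjusted by Benjamini-Hochberg over both parts, with a threshold of 0.05. The 32 tested members have 1 tested probe each. The fit was tested on simulated data. Arrays of low quality had over 20% of values at a limit or under 70% of rows filled. Alternatives covered the limit values, centring, scale, IM2 sign, dyes, filters, the unit of the fit, a replicate block and leaving out each culture. Same-numbered cultures of different lines correlated with -0.18 to 0.28 (median -0.01), so the numbers were not taken as pairs.

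Members and gene lists were chosen with earlier results of these data known. Every member was accounted for, called members were given with every culture, and genes of other lists were named where they passed and were among the 4 largest of their list. Upstream sequences are RefSeq's, GRCm38.p6. The members without a window are Bmp1, Col12a1, Col14a1, Col1a1, Col2a1, Col4a3, Col5a2, Col9a3, Lox, Loxl1, Loxl2, Loxl3 and Plod2. Figures were drawn with matplotlib 3.10.9.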

Additional observations from a re-analysis of the deposited data

Results flagged for a closer look

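Loxl2 differed between the 4 transfected lines (adjusted p = 0.00161 in limma's F test over all probes), the only member to do so. The same direction from high to low labelled level was seen in both genotypes: the cultures of WTA lay between -0.94 and -0.07 and those of WTD between -2.07 and -1.97, while those of D7E lay between 0.12 and 0.30 and those of D7F between -2.40 and -1.01. The measured Pabpn1 difference from IM2 was 1.61 in WTD and 1.79 in D7E, where the Loxl2 means were -2.02 and 0.21. In untransfected IM2 the Loxl2 mean was 0.01. Whether Loxl2 goes with the level of Pabpn1 was not tested. With the culture in channel 1 the arrays gave -1.01 to -0.06 in WTA, -2.37 to -1.43 in WTD, 0.23 to 0.32 in D7E and -2.36 to -0.31 in D7F, so that WTA and D7F overlapped. With the culture in channel 2 they gave -0.87 to -0.05, -2.72 to -1.56, 0.00 to 0.38 and -2.84 to -1.06 in the same order. With the Cy5 arrays alone the F test had adjusted p = 0.0592 and with the Cy3 arrays alone 0.134.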

How the results depend on the processing

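No called member changed direction in transfected lines against IM2 under any of up to 26 alternatives. In that comparison 11 called members passed in every alternative that tested them: Col11a1, Col6a3, Col3a1, Lox, Col6a1, Col1a1, Col12a1, Plod2, Pcolce, Col18a1 and Plod1. The other 9 missed the threshold in at least 1, and 3 members that were not called passed in at least 1. The 20 calls became 13 with the Cy5 arrays alone, where the share of all probes that passed went from 15.2% to 5.44%. They were 18 to 21 when 1 culture was left out. In WTA the 18 calls became 10 with scaled arrays, 7 with Cy5 arrays and 1 with only WTA and IM2 fitted (14 to 19 with 1 culture left out). For WTA the share of all probes went from 11.5% to 3.88%, 2.24% and 0.144% in the same order. In WTD the 18 became 11 with limit values kept, 9 with Cy5 arrays, 10 with Cy3 arrays and 11 where 1 orientation was enough (10 to 19). For WTD the share of all probes went from 7.03% to 2.94%, 1.71%, 2.26% and 1.39% in the same order. In D7E they ran from 12 to 17 with 1 culture left out. In D7F the 11 became 7 with limit values kept, 7 with the IM2 sign turned, 4 with Cy5 arrays, 5 with Cy3 arrays, 6 where 1 orientation was enough and 4 with only D7F and IM2 fitted (6 to 13). For D7F the share of all probes went from 4.50% to 2.46%, 7.28%, 0.785%, 1.83%, 1.17% and 0.854% in the same order. Among the transfected lines the 1 call became 0 with Cy5 or Cy3 arrays alone, 3 with probes measured in all 15 cultures and 9 with arrays as units and a dye term (1 to 2). Here the share of all probes went from 1.66% to 0.225%, 0.489%, 4.92% and 6.49% in the same order. Between high and low the 1 call became 0 with Cy3 arrays, 2 with probes measured in all 15 cultures and 6 with the dye term (1 to 4). There the share of all probes went from 0.381% to 0.0699%, 1.1% and 1.37% in the same order. The mutant against wild-type count stayed 0 (0 to 0). The interaction count of 0 became 1 with scaled arrays, 1 with probes measured in all 15 cultures and 5 with the dye term (0 to 1). With scaled arrays the share of all probes went from 2.37% to 2.83%. The shares for the other interaction fits are not given here, so their counts are not read as a result about the members. With the culture number as a replicate block, 2 members differed among the lines, Col6a3 joining Loxl2, where 1.31% of all probes did. The interaction had 1 member with that block, and the share of all probes is not given here. Fits on fewer arrays or fewer lines have fewer values to estimate the spread from, and the cause of the other changes was not tested. The median of all probes moved from 0.03 to -0.08 with the Cy3 arrays alone. Spot intensities were not used, so the share of members near background is not known.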
